A study of Mus musculus with 18 samples.

Results

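The genes described are Cdkn1a, which encodes the cyclin-dependent kinase inhibitor p21, and 9 further genes of the p53 pathway: Trp53, Mdm2, Ccng1, Btg2, Bax, Phlda3, Sesn1, Trp53inp1 and Gadd45b. They are 10 of the 23930 genes listed for mouse liver, were taken by symbol, and were chosen by their levels in the livers of ethanol-fed Yap knockout mice, which had already been seen. All 10 symbols were found, and all 10 passed the filter on low values that the tests used (at least 1 CPM in at least 3 of the 18 libraries, 11720 genes). CPM is the reads of a gene, scaled so that each library sums to the same total. Every comparison that contains the ethanol-fed knockout group is therefore a description with no test of the 10 genes. Counts of genes passing a threshold there stand beside those of all genes, and nothing is read from them for the 10. Comparisons among the other 5 groups were tested.

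All mice carried floxed Yap alleles (Yap fl/fl) and were injected at 8 weeks of age with an adeno-associated virus whose TBG promoter is active in hepatocytes. The 6 groups had 3 libraries each: hepatocyte Yap knockout (Yap KO, virus AAV-TBG-Cre) on ethanol, hepatocyte YAP overexpression (YAP OE, AAV-TBG-YAP-P2A-EGFP) on ethanol and control (AAV-TBG-GFP) on ethanol, and the same 3 kinds of mice pair-fed. Per mouse, the Cre virus was given at a dose of 0.5 and the other viruses at 2 (one unit of genome copies for all), so knockout and control differ in dose as well as in the gene delivered. Feeding with the Lieber-DeCarli liquid diets began 2 weeks later, with 5 days of acclimation and then 4 weeks of ethanol (EtOH-fed) or control diet (pair-fed). Tissue was collected 9 hours after a last gavage, which was ethanol (5 g/kg) in EtOH-fed and maltose-dextrin in pair-fed mice.

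The transcription factor p53, the product of Trp53, is held at low levels by the ubiquitin ligase Mdm2, which is itself a p53 target, so the pair forms a feedback loop. DNA damage, oncogene activity and metabolic stress stabilise p53, which then activates genes that stop the cell cycle (Cdkn1a, Btg2, Ccng1), favour cell death (Bax, Phlda3) or limit oxidative and metabolic stress (Sesn1, Trp53inp1). Cdkn1a is also reached by routes that do not need p53. In hepatocytes p21 restrains entry into the cell cycle during regeneration and chronic injury. Gadd45b, a stress sensor of the Gadd45 family, is mainly known as a target of NF-kappaB and TGF-beta signals.

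Before the results, 4 facts about the libraries apply. Libraries held 4.68 to 5.81 M reads, so that 3 reads correspond to 0.517 to 0.641 CPM. Yap1, the targeted gene, was at 4.76, 3.34 and 5.08 CPM in EtOH-fed Yap KO livers, 143.7, 115.3 and 106.4 CPM in EtOH-fed YAP OE livers and 62.5, 66.6 and 58.1 CPM in EtOH-fed controls. In pair-fed mice it was at 15.1, 6.20 and 4.18 CPM in Yap KO livers, 57.6, 155 and 214 CPM in YAP OE livers and 60.7, 51.5 and 53.9 CPM in controls, so the library labelled pair-fed YAP OE replicate 1 was at the control level. Xist, the RNA of the inactive X chromosome, was at 348 to 423 CPM in all 3 pair-fed Yap KO libraries and in pair-fed control replicates 2 and 3, and at no more than 2.75 CPM in the other libraries. Ethanol and this sex chromosome pattern cannot be told apart in the Yap KO mice. A term for the pattern is used below. It was estimated from pair-fed controls alone, the only group with libraries of both kinds, as replicate 1 against replicates 2 and 3. Values with this term carry that difference over to the Yap KO mice and do not separate ethanol from the pattern there. In whole liver, a lower value can come from fewer cells of a type or from less RNA per cell, and these cannot be told apart.

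Upstream sequence from RefSeq (mouse build GRCm38.p6) was found for 9 of the 10 genes, Trp53inp1 being the other, in 11 windows of 250 bases that end at an annotated transcription start. The windows of Cdkn1a, Mdm2 and Ccng1 are shown because these are the genes through which p53 activity is usually read, and because 2 of them hold the closest matches to a whole p53 site. Capitals mark each exact match to the p53 half-site consensus, a 10-letter pattern that reads the same on both strands. Apart from the whole p53 site, a pair of adjoining half-sites, no motif named below overlaps these matches.

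Cdkn1a, upstream start, chr17:29090729-29090978, plus strand: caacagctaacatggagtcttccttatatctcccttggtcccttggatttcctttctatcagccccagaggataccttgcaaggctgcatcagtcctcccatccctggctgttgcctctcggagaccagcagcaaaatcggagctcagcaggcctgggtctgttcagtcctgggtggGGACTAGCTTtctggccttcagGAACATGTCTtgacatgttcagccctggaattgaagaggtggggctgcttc
Cdkn1a, downstream start, chr17:29093519-29093768, plus strand: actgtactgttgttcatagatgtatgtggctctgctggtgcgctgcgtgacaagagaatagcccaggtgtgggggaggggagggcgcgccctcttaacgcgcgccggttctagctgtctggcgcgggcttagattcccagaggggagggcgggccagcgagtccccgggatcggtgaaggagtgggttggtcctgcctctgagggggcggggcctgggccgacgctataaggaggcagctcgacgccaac
Mdm2, chr10:117710759-117711008, minus strand: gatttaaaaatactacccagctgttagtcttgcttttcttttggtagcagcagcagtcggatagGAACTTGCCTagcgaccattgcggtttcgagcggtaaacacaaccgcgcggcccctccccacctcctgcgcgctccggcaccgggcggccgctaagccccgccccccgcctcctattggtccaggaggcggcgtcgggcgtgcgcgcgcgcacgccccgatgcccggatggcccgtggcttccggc
Ccng1, chr11:40755287-40755536, minus strand: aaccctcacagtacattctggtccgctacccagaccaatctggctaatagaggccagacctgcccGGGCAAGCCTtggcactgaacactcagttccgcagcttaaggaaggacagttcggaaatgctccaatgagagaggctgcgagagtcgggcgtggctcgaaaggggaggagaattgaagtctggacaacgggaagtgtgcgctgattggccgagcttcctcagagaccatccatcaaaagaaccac

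A half-site was present in 6 of the 11 windows, against 7.13% of 32851 windows of the same length over all genes. In the upstream Cdkn1a window the half-sites began 73 and 51 bases before the start. The second abutted another near half-site, giving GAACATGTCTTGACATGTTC, which is 1 letter off the 20-letter pattern of 2 adjoining half-sites. The Ccng1 window held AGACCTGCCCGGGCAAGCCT, also 1 letter off, beginning 195 bases before the start. Such a match with at most 1 letter off was found in 0.0761% of all windows. The other half-sites lay in the windows of Trp53, Mdm2, Bax and 1 of the 2 Sesn1 windows, and the downstream Cdkn1a window held none. The letters TGATGNAA, the core of the site read by ATF4 with C/EBP partners, were in 0 of the 11 windows and in 3.45% of all windows. The letters GGAATG, read by the TEAD factors through which YAP acts, were in 0 of the 11 and in 12.6% of all windows. A match describes the letters and is not a measurement of binding.

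Cdkn1a had the widest spread of the 10 genes. It was at 341, 375 and 349 CPM in EtOH-fed Yap KO livers, at 37.7, 18.97 and 29.5 CPM in EtOH-fed YAP OE livers and at 187, 277 and 46.2 CPM in EtOH-fed controls. In pair-fed mice it was at 7.47, 13.7 and 5.05 CPM in Yap KO livers, 26.9, 111.5 and 20.7 CPM in YAP OE livers and 27.7, 14.8 and 28.3 CPM in controls. The 3 EtOH-fed Yap KO libraries thus held the highest values of all 18 and lay close together, and the 3 pair-fed Yap KO libraries held the lowest. The standard deviation of log2(CPM + 1) over the 18 libraries, 1.92, was larger than in 99.72% of the genes tested. It includes the EtOH-fed Yap KO values that took part in the choice of the gene, so this rank is only a description.

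**Figure D1:**
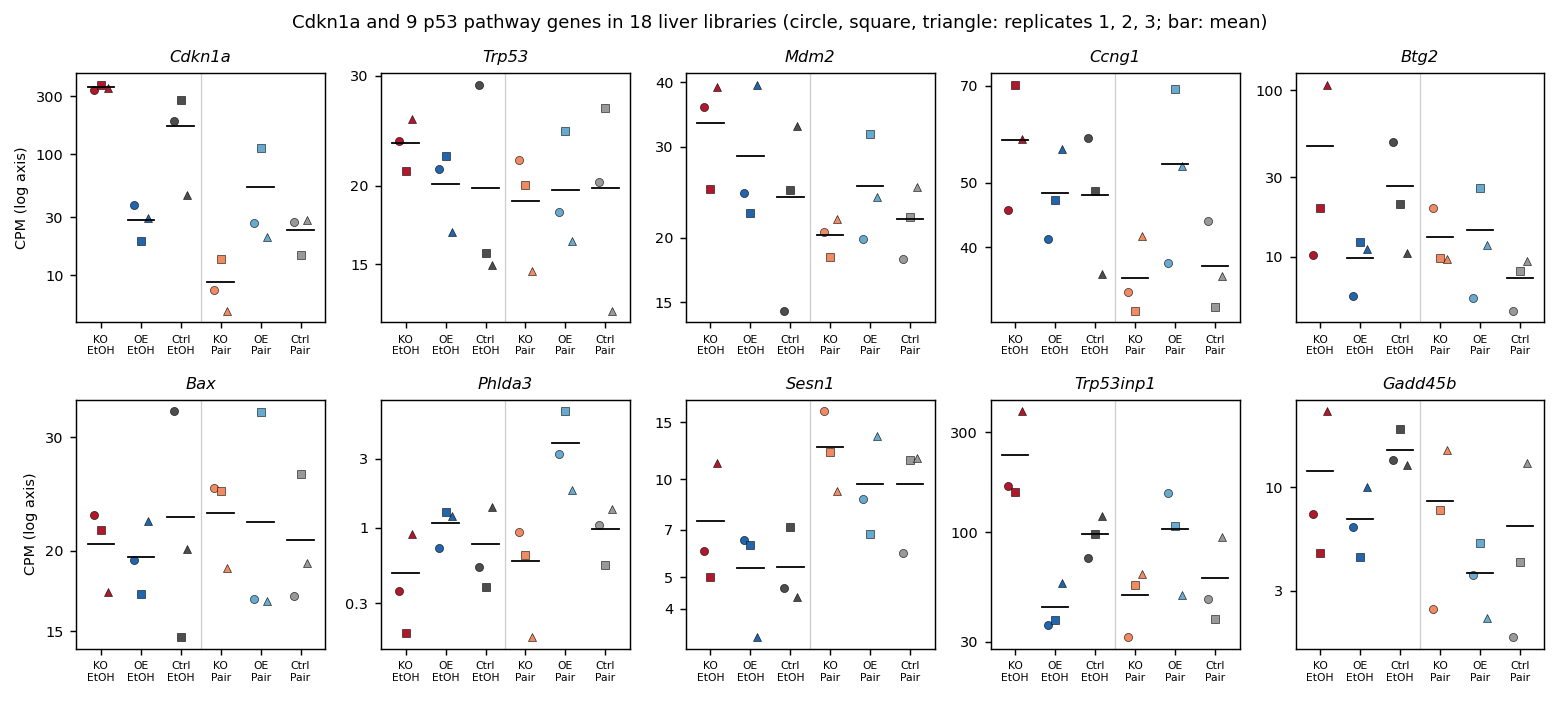
CPM of the 10 genes (log axis, a separate scale for each gene) in the 6 groups, with EtOH-fed groups left of the grey line and pair-fed groups right of it; circles, squares and triangles are replicates 1, 2 and 3 and the bar is the mean of 3 libraries. Cdkn1a stands at 341 to 375 CPM in EtOH-fed Yap KO livers and at 5.05 to 13.7 CPM in pair-fed Yap KO livers, while the highest library is 2.30-fold above the lowest for Trp53 and 2.25-fold for Bax.

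In EtOH-fed against pair-fed Yap KO livers, Cdkn1a averaged 355 ± 17.97 CPM and 8.73 ± 4.45 CPM (SD, n = 3 each). The ratio was 40.7 and the log2 change was 5.29 (SE 0.57). These values took part in the choice of the gene and carry no test. With a term for the Xist pattern the log2 change was 4.88, and 0 of the 10 genes and 0 of all genes passed the adjusted threshold in that comparison. Marker genes of Kupffer cells, the resident macrophages of liver, summed to 122 to 162 CPM in EtOH-fed Yap KO livers and 340 to 399 CPM in pair-fed ones (6 of 6 markers detected), and their part in the result was not tested.

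In control mice Cdkn1a was higher on ethanol, with 170 ± 116 CPM in EtOH-fed livers against 23.6 ± 7.63 CPM in pair-fed livers (SD, n = 3 each). All 3 EtOH-fed control libraries were above all 3 pair-fed ones, with a log2 change of 2.51 (SE 0.57) and an adjusted p of 0.0213. The lowest EtOH-fed value, 46.2 CPM in replicate 3, was closer to the pair-fed libraries than to the other EtOH-fed ones. The call was lost without pair-fed control replicate 2 (adjusted p = 0.0965) and without EtOH-fed control replicate 1 (0.0646) or 2 (0.131). It was also lost with the term for the Xist pattern (log2 change 2.24, adjusted p = 0.319), with no filter on low values (0.0558) and with the control libraries fitted alone (0.0645). Pair-fed control replicate 1, which shares the low Xist level of the EtOH-fed controls, was at 27.7 CPM, below all 3 of them.

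In YAP OE mice Cdkn1a averaged 28.7 ± 9.40 CPM on ethanol and 53.02 ± 50.7 CPM pair-fed (SD, n = 3 each). The libraries overlapped and the log2 change was -0.51 (95% interval -1.70 to 0.68, adjusted p = 0.742). Without the library labelled pair-fed YAP OE replicate 1, whose Yap1 was at the control level, it was -0.79 (adjusted p = 0.666). Without pair-fed YAP OE replicate 2 it turned to 0.22 (adjusted p = 0.905), without pair-fed replicate 3 it was -0.97 (0.576) and without EtOH-fed YAP OE replicate 2 it was -0.25 (0.932). The pair-fed mean rested on replicate 2, at 111.5 CPM. Replicate 2 was also the highest pair-fed YAP OE library for Trp53, Mdm2, Ccng1, Btg2, Bax, Phlda3 and Gadd45b. It was not the highest for Trp53inp1, at 107 CPM against 154 CPM in replicate 1, and it was the lowest for Sesn1, at 6.78 CPM.

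Between genotypes on ethanol, Cdkn1a in all 3 Yap KO libraries was above all 3 controls, with a log2 change of 1.40 (SE 0.57). The change was 0.64 without EtOH-fed control replicate 3, and these values carry no test. All 3 YAP OE libraries were below all 3 controls, with a log2 change of -2.24 (SE 0.57), which missed the threshold over all genes (adjusted p = 0.149). That value reached -2.99 with an adjusted p of 0.0341 without EtOH-fed control replicate 3, and -2.43 with 0.0385 when libraries were weighted by their spread. The ratio of mean levels between EtOH-fed Yap KO and YAP OE livers was 12.4, a log2 change of 3.63 (SE 0.57). In pair-fed mice the order of Yap KO and control was the other way round, with 8.73 ± 4.45 CPM in Yap KO livers against 23.6 ± 7.63 CPM in controls, a log2 change of -1.38 (adjusted p = 0.999). Among libraries with high Xist alone, the 3 pair-fed Yap KO values of 5.05 to 13.7 CPM stood against 14.8 and 28.3 CPM in controls. Pair-fed YAP OE livers did not differ detectably from pair-fed controls (log2 change 0.79, 95% interval -0.40 to 1.98, adjusted p = 0.749), and the change was 0.06 without pair-fed YAP OE replicate 2.

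By mean level the order of Cdkn1a was EtOH-fed Yap KO, EtOH-fed control, pair-fed YAP OE, EtOH-fed YAP OE, pair-fed control and pair-fed Yap KO. The libraries of the first pair of neighbours and of the last pair did not overlap, and those of each pair between them did. As a description, the ethanol response of Cdkn1a was larger in Yap KO than in control mice by a log2 difference of 2.78 (SE 0.80). It was smaller in YAP OE than in control mice by a log2 difference of -3.02 (95% interval -4.70 to -1.34), with an adjusted p of 0.268.

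Trp53 and Mdm2 form the feedback pair at the centre of the pathway. Trp53 was at 23.6, 21.2 and 25.6 CPM in EtOH-fed Yap KO livers and 22.0, 20.1 and 14.6 CPM in pair-fed Yap KO livers. Its levels in the 6 groups overlapped, and its log2 changes between groups lay between -0.03 and 0.31. The p53 protein is regulated mostly by its stability, so its mRNA level says little about its activity. Mdm2 was at 35.9, 24.9 and 39.2 CPM in EtOH-fed Yap KO livers, against 20.5, 18.4 and 21.8 CPM in pair-fed ones. All 3 EtOH-fed values were the higher ones, with a log2 change of 0.67 (SE 0.28), or 1.02 with the term for the Xist pattern. EtOH-fed YAP OE livers had 24.4, 22.3 and 39.6 CPM of Mdm2 and EtOH-fed controls 14.4, 24.7 and 33.0 CPM, so the EtOH-fed groups overlapped.

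Ccng1, cyclin G1, is a p53 target in mouse liver whose product recruits a phosphatase that acts on Mdm2. It was at 45.4, 70.3 and 58.2 CPM in EtOH-fed Yap KO livers, against 34.2, 32.1 and 41.6 CPM in pair-fed Yap KO livers. The groups did not overlap, and the log2 change was 0.66 (SE 0.23), or 0.32 with the term for the Xist pattern. EtOH-fed controls had 58.4, 48.7 and 36.4 CPM against 43.8, 32.5 and 36.1 CPM in pair-fed controls, with overlap and a log2 change of 0.33 (adjusted p = 0.486), or 0.10 with that term (0.955), and 0.18 without EtOH-fed control replicate 1 or 0.51 without replicate 3. Pair-fed YAP OE livers, with 37.9, 69.2 and 52.99 CPM, overlapped the pair-fed controls as well (log2 change 0.47, adjusted p = 0.610). That change was 0.24 with the term for the Xist pattern and 0.26 without pair-fed YAP OE replicate 2.

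Btg2, an antiproliferative gene that responds to p53 and to growth factors within minutes to hours, varied widely within groups. EtOH-fed Yap KO livers had 10.3, 19.7 and 108 CPM, against 49.2, 20.7 and 10.6 CPM in EtOH-fed controls. Pair-fed Yap KO livers had 19.6, 9.83 and 9.75 CPM, against 4.73, 8.21 and 9.37 CPM in pair-fed controls, so all 3 were above the controls (log2 change 0.71, adjusted p = 0.999). The high mean of the EtOH-fed Yap KO group, 46.1 ± 54.2 CPM (SD, n = 3), rested on replicate 3: the log2 change with ethanol in Yap KO mice was 1.14 with it, 0.19 without it, 1.83 without EtOH-fed replicate 1 and 1.91 with the term for the Xist pattern. In control mice all 3 EtOH-fed libraries were above the pair-fed ones, with a log2 change of 1.51 that missed the threshold (adjusted p = 0.233). It was 0.95 without EtOH-fed control replicate 1 (0.502) and 2.02 with the term for the Xist pattern (0.451).

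Gadd45b followed a different order. It was at 7.33, 4.64 and 24.3 CPM in EtOH-fed Yap KO livers, 6.32, 4.42 and 9.99 CPM in EtOH-fed YAP OE livers and 13.7, 19.7 and 13.0 CPM in EtOH-fed controls. Among EtOH-fed mice the control mean was the highest, and all 3 YAP OE libraries were below it (log2 change -1.10, adjusted p = 0.643). The log2 change with ethanol was 0.42 in Yap KO mice (SE 0.60). With each library left out it was -0.20 (EtOH-fed Yap KO replicate 3) to 0.96 (pair-fed Yap KO replicate 3). With the term for the Xist pattern it was 2.07. In control mice it was 1.47 (adjusted p = 0.199), with 1.75 to 13.2 CPM in the pair-fed libraries. There it was 0.92 without pair-fed control replicate 1 (0.471) and 2.56 with the term for the Xist pattern (0.216).

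Bax, the pore-forming death effector that p53 activates directly, was at 22.7, 21.5 and 17.2 CPM in EtOH-fed Yap KO livers and 25.0, 24.8 and 18.8 CPM in pair-fed ones. Its log2 changes between groups lay between -0.15 and 0.14, and its lowest and highest values, 14.7 and 33.0 CPM, were both in EtOH-fed controls. With the term for the Xist pattern its change with ethanol was 0.23 in Yap KO mice and 0.32 in control mice (adjusted p = 0.846). Phlda3, a p53 target that restrains Akt, was near the limit of detection, with at least 1 CPM in 8 of the 18 libraries. It was at 0.37, 0.19 and 0.91 CPM in EtOH-fed Yap KO livers, between 0.17 and 1.39 CPM in the 12 libraries of 4 further groups, and at 3.22, 6.43 and 1.83 CPM in pair-fed YAP OE livers. That last group lay above all other libraries, with a log2 change of 1.19 over pair-fed controls (adjusted p = 0.251) and of -1.12 with ethanol in YAP OE mice (adjusted p = 0.124). Without the library labelled pair-fed YAP OE replicate 1 these were 1.23 (0.394) and -1.16 (0.213).

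Trp53inp1, a p53 target that takes part in autophagy and in the antioxidant response, was the member nearest to Cdkn1a. It was at 166, 155 and 380 CPM in EtOH-fed Yap KO livers, 35.9, 38.3 and 57.5 CPM in EtOH-fed YAP OE livers and 75.5, 98.1 and 120 CPM in EtOH-fed controls. These 3 groups did not overlap each other. In pair-fed mice it was at 31.6, 56.0 and 63.2 CPM in Yap KO livers, 154, 107 and 50.1 CPM in YAP OE livers and 47.8, 38.5 and 94.9 CPM in controls, all overlapping. The log2 change with ethanol in Yap KO mice was 2.13 (SE 0.41), and 1.72 without EtOH-fed Yap KO replicate 3. It was -1.11 in YAP OE mice (adjusted p = 0.201) and 0.77 in control mice (adjusted p = 0.327). On ethanol the Yap KO level was above control by 1.15 (SE 0.41), or 0.74 without EtOH-fed Yap KO replicate 3. The YAP OE level was below control (-1.14, adjusted p = 0.353).

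Sesn1, a stress-induced inhibitor of the nutrient-sensing kinase mTORC1, had lower means on ethanol. It was at 6.04, 5.01 and 11.2 CPM in EtOH-fed Yap KO livers, against 16.2, 12.2 and 9.23 CPM in pair-fed ones. EtOH-fed YAP OE livers had 6.50, 6.26 and 3.27 CPM against 8.71, 6.78 and 13.6 CPM in pair-fed ones, with no overlap. EtOH-fed controls had 4.63, 7.15 and 4.34 CPM, against 5.95, 11.5 and 11.7 CPM in pair-fed controls. The log2 change with ethanol was -0.72 in Yap KO mice, -0.75 in YAP OE mice (adjusted p = 0.322) and -0.72 in control mice (adjusted p = 0.272). Neither tested change passed the threshold. With the term for the Xist pattern the value was 0.13 in Yap KO mice and -0.15 in control mice (0.952), and without EtOH-fed YAP OE replicate 3 the YAP OE value was -0.48 (0.744).

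**Figure D2:**
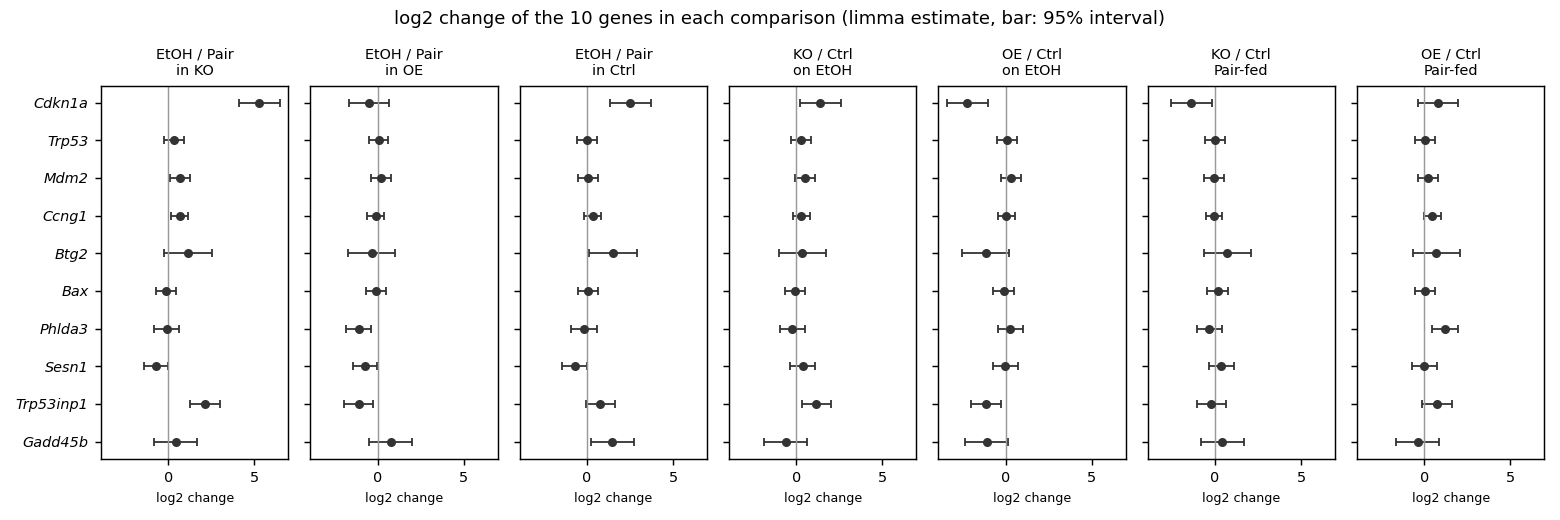
log2 change of each of the 10 genes in 7 comparisons, estimated with limma on log2(CPM + 1), with bars for the 95% interval and the comparison written above each panel. Cdkn1a lies farthest from 0 in the first panel, at 5.29, followed there by Trp53inp1 at 2.13. The Trp53 and Bax points stay between -0.15 and 0.31 in all 7 panels. Bars of comparisons that hold the EtOH-fed Yap KO group show spread and are not read as tests.

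In the comparisons that hold the EtOH-fed Yap KO group, counts over the 10 genes describe values that took part in choosing them, and nothing is read from these counts. In EtOH-fed against pair-fed Yap KO livers 2 of the 10, Cdkn1a and Trp53inp1, passed the adjusted threshold by limma, where 9.9% of the 11720 genes did. By edgeR 3 of the 10 passed, beside 10.8% of genes, and by limma with TMM scaling of the libraries 3 passed, beside 10.6%. In 4 of the 10, Cdkn1a, Mdm2, Ccng1 and Trp53inp1, the 3 EtOH-fed libraries were all higher than the 3 pair-fed ones, where 11.7% of all genes were. The median log2 change of the 10 was 0.54, beside -0.05 over all genes tested, and 7 of the 10 were above 0. In EtOH-fed Yap KO against YAP OE livers the same pair, Cdkn1a and Trp53inp1, passed and was apart upward, beside 1.88% of genes called and 12.5% apart upward. In EtOH-fed Yap KO livers against EtOH-fed controls 0 of the 10 passed by limma (0 by edgeR), beside 0.0171% of genes. By limma 2 of the 10 had an unadjusted p under 0.05, beside 978 of all 11720 genes. In 2 of the 10 the libraries were apart upward, beside 8.23%. For the difference in ethanol response between Yap KO and control mice 0 of the 10 passed by either tool, beside 0% of all genes. By limma 2 of the 10 had an unadjusted p under 0.05 there, beside 666 of all 11720 genes.

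Among the tested comparisons, 1 of the 10 genes, Cdkn1a, passed with ethanol in control mice, beside 2.7% of all genes. There 2 of the 10, Cdkn1a and Btg2, were apart upward, beside 7.69%, and the median log2 change was 0.20, beside -0.09 over all genes. With ethanol in YAP OE mice 0 of the 10 passed by limma or edgeR, beside 1.15% of genes. By limma 3 of the 10 had an unadjusted p under 0.05, beside 1704 of all 11720 genes. In that comparison 2 of the 10, Phlda3 and Sesn1, were apart downward, beside 14.6%, and the median was -0.23, beside -0.07. In EtOH-fed YAP OE livers against EtOH-fed controls 0 of the 10 passed by either tool, beside 0.102%. By limma 2 of the 10 had an unadjusted p under 0.05, beside 1036 of all 11720 genes. In 3 of the 10, Cdkn1a, Trp53inp1 and Gadd45b, the libraries were apart downward, beside 7.54%. These comparisons share the EtOH-fed controls with the ethanol response of control mice.

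In pair-fed Yap KO livers against pair-fed controls 0 of the 10 passed by either tool, beside 0.00853% of genes. By limma 1 of the 10 had an unadjusted p under 0.05, beside 367 of all 11720 genes. Cdkn1a was apart downward, beside 3.22% of genes, and Btg2 was apart upward, beside 3.84%. In pair-fed YAP OE livers against pair-fed controls 0 of the 10 passed by either tool, beside 0.145%, and Phlda3 alone was apart upward, beside 6.27%. By limma 1 of the 10 had an unadjusted p under 0.05, beside 991 of all 11720 genes. The difference in ethanol response between YAP OE and control mice also gave 0 of the 10 by either tool, beside 0% of genes. By limma 2 of the 10 had an unadjusted p under 0.05 there, beside 847 of all 11720 genes.

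Of 40 further p53 targets listed, 37 were tested. In EtOH-fed against pair-fed Yap KO livers 4 of the 37 were called higher and 1 lower, beside 9.9% of all genes called, with a median log2 change of 0.18, beside -0.05 over all genes. In 8 of the 37 the groups were apart upward, beside 11.7%, and in 6 apart downward, beside 16.9%. The higher ones were Aen, a nuclease of the apoptotic response (1.37), Ephx1, microsomal epoxide hydrolase (1.65), Gdf15, a stress hormone (1.99), and Ddit4, an inhibitor of mTORC1 (1.86), and the lower one was Pltp, phospholipid transfer protein (-1.89). Ddit4 was at 49.8, 76.3 and 250 CPM in EtOH-fed Yap KO livers against 32.9, 30.1 and 18.5 CPM in pair-fed ones. Aen was at 67.4, 97.0 and 39.5 CPM in EtOH-fed Yap KO livers against 32.9, 23.3 and 18.3 CPM in pair-fed ones. Neither pair of groups overlapped, and the library with the highest Ddit4 had the lowest Aen of its group. The count of called genes fell to 2 without pair-fed Yap KO replicate 3 and to 3 without pair-fed replicate 2 or EtOH-fed replicate 1 or 2. It was 0 with the term for the Xist pattern and 9 with weighted libraries. Among pair-fed controls, replicate 1 (low Xist) had 46.0 CPM of Pltp, against 147 and 181 CPM in replicates 2 and 3 (high Xist). For Ephx1 it had 988 against 511 and 485 CPM, and for Aen 29.8 against 28.1 and 19.5 CPM. Each of these differences ran the same way as the change in Yap KO mice. For Gdf15 and Ddit4 replicate 1 lay between replicates 2 and 3.

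In control mice 1 of the 37 was called higher with ethanol, Gdf15 (log2 change 3.04, adjusted p = 0.011), and 1 lower, Slc19a2, a thiamine transporter (-1.64, adjusted p = 0.00595), beside 2.7% of all genes called. Gdf15 was at 8.55, 59.3 and 58.3 CPM in EtOH-fed controls against 2.80, 1.10 and 6.69 CPM in pair-fed controls, with no overlap. The count of 2 fell to 1 without pair-fed control replicate 2 and without EtOH-fed control replicate 2 or 3, to 1 with the control libraries fitted alone, and to 0 with the term for the Xist pattern. With ethanol in YAP OE mice 0 of the 37 were called by limma, beside 1.15% of all genes called. By limma 10 of the 37 had an unadjusted p under 0.05, beside 1704 of all 11720 genes. In 10 of the 37 the libraries were apart downward, beside 14.6% of all genes. The 3 largest changes there among genes with a mean of at least 5 CPM were Pltp (-1.45, adjusted p = 0.0792), Ddit4 (-1.06, 0.308) and Sesn2 (-0.97, 0.235). In EtOH-fed Yap KO against YAP OE livers 2 of the 37 were called higher, the sestrin gene Sesn2 (1.53) and the repair nuclease gene Ercc5 (0.97), beside 1.88% of all genes called. Limma called 0 of the 37 in the other comparisons between 2 groups. There 2 to 6 of them had an unadjusted p under 0.05, beside 367 to 1036 of all 11720 genes.

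The p53 regulators are kinases, ligases and other cofactors such as Atm, Atr and Mdm4. Of 18 listed, 15 were measured and tested, and 0 were called with ethanol in any of the 3 kinds of mice, beside 9.9% of all genes in Yap KO, 1.15% in YAP OE and 2.7% in control mice. By limma 2 in each had an unadjusted p under 0.05, beside 3058, 1704 and 2120 of all 11720 genes in the same order. Their median log2 change in EtOH-fed against pair-fed Yap KO livers was 0.01. Rchy1, a ubiquitin ligase of p53, was at 22.7, 27.6 and 21.6 CPM in EtOH-fed Yap KO livers against 12.8, 11.4 and 11.7 CPM in EtOH-fed YAP OE livers, the 1 gene of this list called in any comparison.

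Genes that act beside or below p21 were compared where 9.9% of all genes were called, in EtOH-fed against pair-fed Yap KO livers. Of the other CDK inhibitors 4 of 6 were tested, and Cdkn1c, p57, was called lower (log2 change -1.41). It was at 2.20, 2.04 and 2.72 CPM in EtOH-fed Yap KO livers against 11.9, 5.98 and 6.44 CPM in pair-fed ones. In pair-fed controls Cdkn1c was at 2.45 CPM in replicate 1, with low Xist, and at 8.58 and 4.97 CPM in replicates 2 and 3, with high Xist. Its fall in Yap KO mice thus cannot be told apart from the Xist pattern. Of 11 cyclin and CDK genes tested, 1 was called in that comparison. Cyclin D1, Ccnd1, was at 15.6, 17.6 and 12.7 CPM in EtOH-fed Yap KO livers against 105.3, 24.6 and 73.2 CPM in pair-fed ones, lower in each library (log2 change -1.86). Of 14 proliferation genes tested, 1 was called, Rrm2, a subunit of ribonucleotide reductase. It was higher, at 37.5, 40.5 and 22.7 CPM in EtOH-fed Yap KO livers against 11.2, 7.48 and 7.32 CPM in pair-fed ones (log2 change 1.82). The summed markers of dividing cells, Mki67, Top2a and Cdk1, were lower in all 3 EtOH-fed Yap KO livers, at 3.11 to 3.90 CPM, against 4.85 to 7.32 CPM in pair-fed ones. They were also lower with ethanol in YAP OE mice, at 1.63 to 2.93 against 3.41 to 15.5 CPM, and overlapped in control mice. The median log2 change of the 14 proliferation genes with ethanol was -0.27 in Yap KO, -0.535 in YAP OE and -0.08 in control mice.

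Among relatives of the 10 genes, 13 of 18 were tested. Gadd45a, a p53 target and the relative of Gadd45b, was called higher with ethanol in Yap KO mice (log2 change 2.13) and Sesn3 lower (-1.24), beside 9.9% of all genes called. Sesn3 was near the limit of detection, at 0.18, 0.56 and 1.45 CPM in EtOH-fed Yap KO livers against 3.36, 3.42 and 2.09 CPM in pair-fed ones. Gadd45a was at 80.4, 183 and 23.9 CPM in EtOH-fed Yap KO livers against 24.5, 11.1 and 13.4 CPM in pair-fed ones, so replicate 3 lay within the pair-fed range. In control mice its log2 change with ethanol was 1.02 (adjusted p = 0.317).

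Lists of programs other than p53 follow. Their counts stand beside 9.9% of all genes called with ethanol in Yap KO mice, 1.15% in YAP OE mice and 2.7% in control mice. Of 10 genes of the integrated stress response, the program driven by ATF4, 3 were called higher with ethanol in Yap KO mice: Trib3 (log2 change 3.60), Atf3 (3.93) and Asns (3.01). Asns was at 18.9, 20.8 and 2.36 CPM in EtOH-fed Yap KO livers against 0.93, 0.43 and 0 CPM in pair-fed ones, which were near the limit of detection. Sesn2, also on this list, is counted among the further p53 targets and the relatives as well. Ddit3, which encodes CHOP, was at 125.6, 153 and 6.71 CPM in EtOH-fed Yap KO livers against 10.5, 15.0 and 10.5 CPM in pair-fed ones, so replicate 3 was below all pair-fed Yap KO libraries. In control mice 0 of the 10 were called by limma with ethanol (4 at an unadjusted p under 0.05, beside 2120 of all 11720 genes). Of 12 immediate early genes, 3 were called higher with ethanol in Yap KO mice, 1 in YAP OE mice and 3 in control mice. Egr1 was called higher in all 3, by 2.83 in Yap KO mice, 2.66 in YAP OE mice (adjusted p = 0.00438) and 2.30 in control mice (adjusted p = 0.00766). Of 9 glucocorticoid receptor targets, Fkbp5 (1.71) and Lcn2 (5.48) were called higher with ethanol in Yap KO mice. The log2 change with ethanol was above 0 for 6 of the 9 in Yap KO, 1 in YAP OE and 4 in control mice. Its medians over the 9 were 0.59, -0.90 and -0.51 in the same order. Lcn2, an acute phase gene, was also called higher in YAP OE mice (4.81, adjusted p = 0.0118) and control mice (4.57, adjusted p = 0.00934), and Zbtb16 was called lower in YAP OE mice (-2.16, adjusted p = 0.0428).

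**Figure D3:**
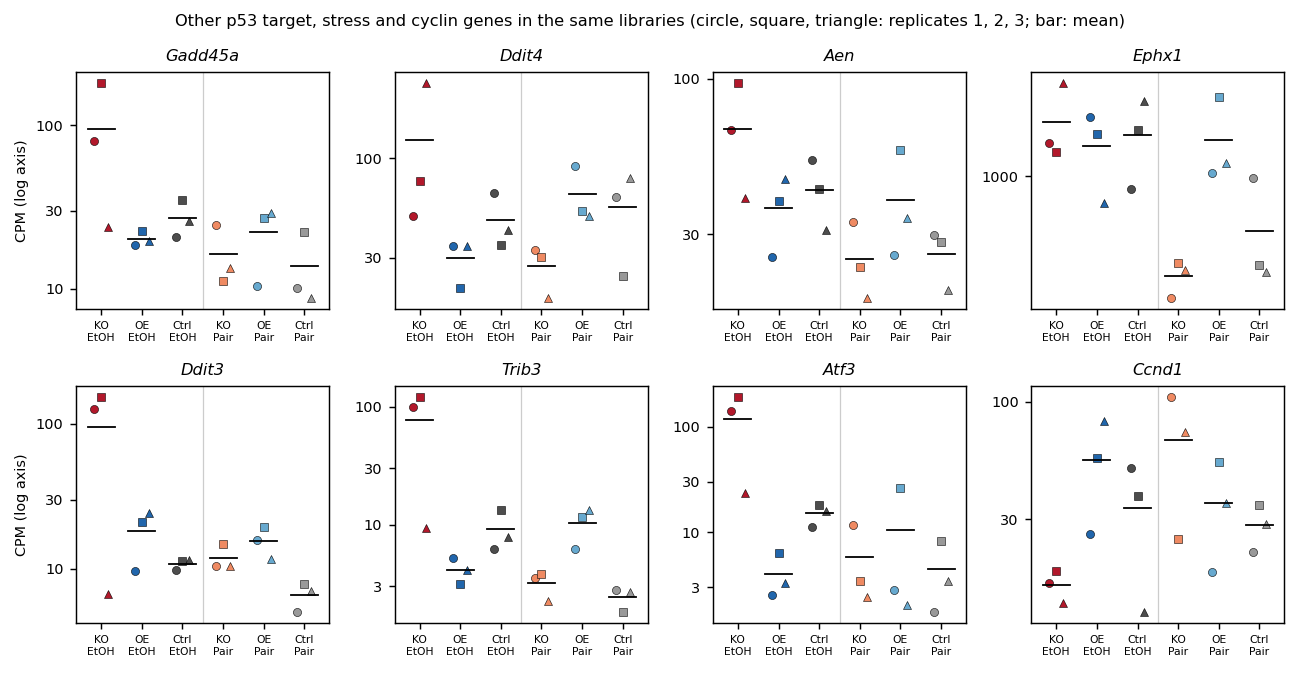
CPM (log axis, a separate scale for each gene) of 8 genes from the p53 target, relative, stress response and cyclin lists in the 6 groups, with EtOH-fed groups left of the grey line and pair-fed groups right of it; circles, squares and triangles are replicates 1, 2 and 3 and the bar is the mean of 3 libraries. In EtOH-fed Yap KO livers replicate 3 is lowest for Gadd45a, Aen, Ddit3, Trib3 and Atf3 and highest for Ddit4 and Ephx1.

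The 3 EtOH-fed Yap KO libraries were alike for Cdkn1a and unlike for the genes named next, which were singled out for this after their values were seen. Replicate 3 was highest of the 3 for Trp53inp1, Btg2, Gadd45b, Ddit4 and Gadd45g, and lowest for Ddit3, Trib3, Atf3, Asns and Gadd45a. Trib3 was at 98.9, 122 and 9.43 CPM in the 3 libraries, Atf3 at 141, 193 and 23.8 CPM and Gadd45g at 26.6, 32.8 and 418 CPM. The liver enzyme gene Tat, a glucocorticoid target, was at 3381, 4849 and 12769 CPM in the same order. Cdkn1a stayed between 341 and 375 CPM in them.

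Over all 18 libraries Trp53inp1 followed Cdkn1a most closely of the other 9 genes, with a Pearson correlation of log2(CPM + 1) of 0.73, then Ccng1 with 0.66 and Btg2 with 0.57. Gadd45b (0.39), Mdm2 (0.38), Trp53 (0.33), Bax (0.06), Phlda3 (-0.10) and Sesn1 (-0.42) followed. By Spearman rank correlation Mdm2 (0.57) came next after Trp53inp1 (0.71) and Ccng1 (0.67), ahead of Btg2 (0.49) and Gadd45b (0.39). These correlations describe 18 libraries that share diet and genotype groups, and carry no test. Among 8448 other genes with a mean of at least 5 CPM, the 8 most like Cdkn1a were Acvr1b (0.92), Gatad2b (0.90), Cidec (0.90), Arsg (0.88), Aebp2 (0.88), Tbl1xr1 (0.87), Ccdc86 (0.86) and Insig2 (0.86), none of them on the lists above. Acvr1b, the activin receptor ALK4, was at 33.9, 47.1 and 36.3 CPM in EtOH-fed Yap KO livers, 26.0, 24.3 and 24.3 CPM in EtOH-fed YAP OE livers and 27.1, 33.8 and 29.1 CPM in EtOH-fed controls. Pair-fed Yap KO livers had the lowest Acvr1b, 16.4, 15.8 and 15.7 CPM, as they had the lowest Cdkn1a. Cidec, a lipid droplet protein of fatty liver, was at 145, 166 and 90.7 CPM in EtOH-fed Yap KO livers and 6.35, 5.34 and 6.10 CPM in pair-fed ones. In pair-fed YAP OE replicate 2, where Cdkn1a was at 111.5 CPM, Cidec was at 194 CPM.

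**Figure D4:**
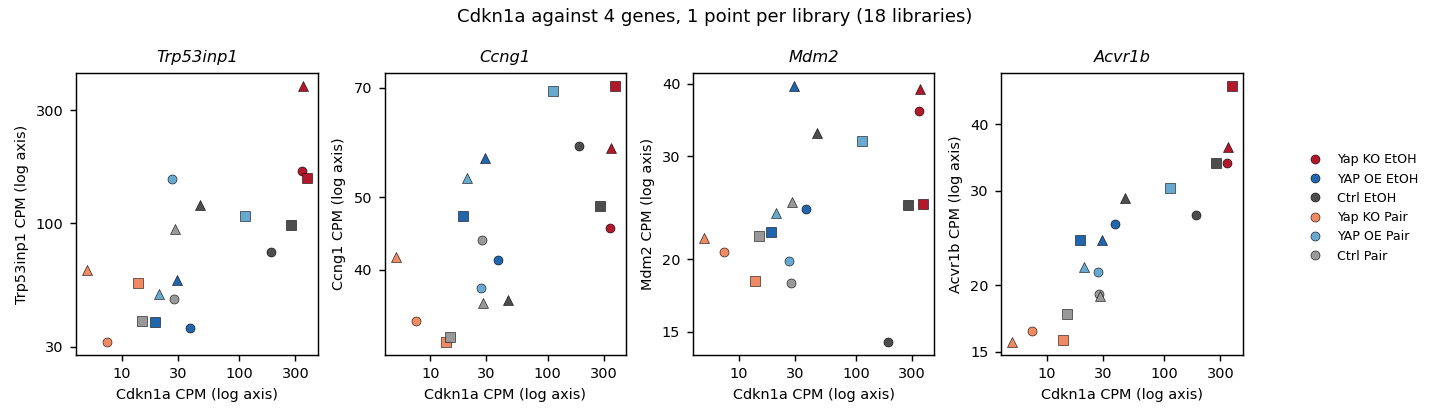
Cdkn1a (x, CPM, log axis) against Trp53inp1, Ccng1, Mdm2 and Acvr1b (y, CPM, log axis), 1 point per library, with colour for the group and circle, square and triangle for replicates 1, 2 and 3. The points of Acvr1b lie nearest to a line (Pearson correlation 0.92 on the log2 scale), and those of Mdm2 scatter most (0.38).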

How the data were processed

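Liver RNA was measured in 18 libraries with the Ion AmpliSeq mouse panel, which reads 1 amplicon per gene, so levels of different genes are not compared. The authors deposited CPM for 23930 genes. Counts were recovered from it, since 100% of values came out whole to a tolerance of 0.02 reads. The deposited per-library values are log2(RPM + 1), made with ampliSeqRNA 5.10.1.2 per the file headers, and match log2(CPM + 1) to 2e-06. The aligner and genome build were not given in the sources used here.

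The 11720 genes reaching 1 CPM in 3 or more libraries were fitted with limma 3.58.1 (R 4.3.3, trend) on log2(CPM + 1) with 6 group means, giving 12 residual degrees of freedom. A log2 change is on the log2(CPM + 1) scale and understates that of low genes. The 10 comparisons were two-sided, with Benjamini-Hochberg adjustment over all genes tested, and an adjusted p under 0.05 was called. The 10 genes, the gene lists and the tests were chosen with earlier results of these data known. The rule for named list genes took every called gene and the 3 largest changes of each list in each comparison with a mean of at least 5 CPM, and the text prints some of these. Alternatives included edgeR 4.0.16 on the recovered reads. The labels do not state that replicates are separate animals, so p-values measure the spread between libraries, which may be technical. Replicate numbers were checked for pairing.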

Additional observations from a re-analysis of the deposited data

Results flagged for a closer look

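The difference between Yap KO and control livers in Cdkn1a ran in opposite directions on the 2 diets. All 3 EtOH-fed Yap KO libraries (341 to 375 CPM) were above all 3 EtOH-fed controls (46.2 to 277 CPM). All 3 pair-fed Yap KO libraries (5.05 to 13.7 CPM) were below all 3 pair-fed controls (14.8 to 28.3 CPM). The difference between these differences was 2.78 on the log2 scale. It was not tested, because the EtOH-fed Yap KO values took part in the choice of the gene, and limma called 0 of 11720 genes for this difference (666 at an unadjusted p under 0.05, and 0 called by edgeR).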

How the results depend on the processing

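For Cdkn1a, the log2 change with ethanol in control mice, 2.51, lost its call with no filter (2.51, adjusted p = 0.0558), with the control libraries fitted alone (2.51, 0.0645) and with a term for the Xist pattern (2.24, 0.319). Leaving out each library in turn gave 1.99 to 3.27 (adjusted p 0.00407 to 0.131), and the count of the 10 genes called there was 0 to 1, being 0 under each of the 3 settings named first. With ethanol in Yap KO mice the change of 5.29 became 4.31 with a pseudocount of 10, and 4.88 with the Xist term, under which 0 of the 10 genes were called. For EtOH-fed YAP OE against control the change of -2.24 became -2.43 with weighted libraries (adjusted p = 0.0385, 1 of the 10 called), and -2.99 to -1.71 with each library left out (0 to 1 called). Of 1910 values of the 10 genes under alternatives, 6.02% changed sign where the gene was not called, and 0 called values did, few being called. Replicate numbers were not treated as pairs. Of 45 pairs of same-numbered libraries 6 correlated above 0.1 (range -0.27 to 0.28), and with 3 libraries per group this cannot exclude pairing. The barcode range followed the replicate number in every library but EtOH-fed control replicate 1. With the replicate block the Cdkn1a change with ethanol in control mice kept its call (2.51, adjusted p = 0.0193). The counts of the 10 genes called were then the same in all 10 comparisons. The number of all genes called moved with several settings and with single libraries left out. With ethanol it was 1160 in Yap KO mice, and 2235 with weighted libraries, 0 with the Xist term, 753 with groups fitted alone and 621 to 1209 with each library left out. In YAP OE mice it was 135, against 505 weighted, 267 alone, 57 with no filter and 17 to 149 with each library left out. In control mice it was 316, against 537 weighted, 23 with the Xist term, 140 alone and 49 to 281 with each library left out. In EtOH-fed Yap KO against YAP OE it was 220, against 766 weighted and 83 to 271 with each library left out. Against control 0.0171% of genes became 0.896% weighted, and the 2 genes became 1 to 36 with each library left out. In EtOH-fed YAP OE against control it was 12, against 71 weighted, 4 with the replicate block or quantile normalization, 2 with the barcode block, 1 with no filter and 0 to 10 with each library left out. In pair-fed YAP OE against control it was 17, against 33 weighted, 29 by edgeR, 5 alone, 1 with the Xist term and 5 to 86 (86 without pair-fed control replicate 1). The difference in response gave 0 for YAP OE mice, against 9 weighted and up to 27 (without pair-fed control replicate 1), and 0 for Yap KO mice, against up to 3. Pair-fed Yap KO against control gave 1, against 0 to 2. Depth limits Phlda3 alone of the 10, at 1 to 3 reads in some libraries.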
